A study of Mus musculus with 12 samples.

Results

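Fetal-like repair epithelium genes were followed in the colon of mice with colitis. The 7 genes, Clu, Anxa1, Anxa8, Sprr1a, Krt7, Msln and Ankrd1, were taken by symbol from the 54532 genes of the count files, and all 7 were among the 17658 genes that passed the low-count filter. Each of the 4 groups held 3 libraries, 1 per mouse, of colon RNA from male C57BL/6 mice that were 6 weeks old on arrival. The Con mice received neither colitis agent nor drug: the labels call them untreated, whereas the methods describe gavage with vehicle. The DSS mice drank 3% (w/v) dextran sulfate sodium, a chemical that injures the colon epithelium, for 5 days. By the methods, they too were given vehicle by gavage. The UA+DSS mice had the same DSS and ursolic acid (UA, a plant triterpenoid) by gavage at 200 mg/kg for 7 days, starting 1 day before the DSS, and the DSS+UA mice had DSS and the same dose for 4 days, starting 3 days after it. These days of UA are those of the methods, and the paper's discussion gives longer ones for both groups. Which segment of the colon was taken, and whether its layers were separated, is not stated in the labels or methods. In bulk tissue, fewer cells of a type and less RNA per cell cannot be told apart.

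When the colon epithelium is wounded, crypt stem cells that carry Lgr5 are lost or switched off, and surviving epithelial cells take on a transient state that resembles the fetal gut. The transcriptional coactivators YAP and TAZ, held back by the Hippo kinases and bound to DNA through TEAD factors, are known to drive much of this state. Its genes include Clu (clusterin, a secreted chaperone that marks the "revival" stem cell), the annexins Anxa1 and Anxa8 (proteins that bind membranes in the presence of calcium, of which Anxa1 limits neutrophil entry and promotes closure of mucosal wounds), Krt7 (a keratin of simple and ductal epithelia), Msln (mesothelin, a surface protein of mesothelium and of some injured epithelia), Sprr1a (a small proline-rich precursor of the cornified envelope) and Ankrd1 (a nuclear ankyrin repeat protein and a much used YAP target). None of them belongs to epithelium alone. Clusterin is abundant in follicular dendritic cells, Anxa1 in neutrophils, Msln in mesothelium, Sprr1a, Anxa8 and Krt7 in other epithelia, and Ankrd1 in muscle and stromal cells.

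Promoter windows of 250 bases before to 50 bases after the start site were read from RefSeq (GRCm38.p6), which listed 5 of the 7 genes. Clu and Msln were not listed. The 4 windows below are shown because the levels of Anxa1 and Anxa8 were correlated across the libraries (below) and because the windows of Sprr1a and Ankrd1 each held a motif more than once. They are printed 5′ to 3′ on the gene's strand, with matches in capitals. The motifs searched, on both strands, were the TEAD core GGAATG, the AP-1 site TGANTCA, the STAT site TTCNNNGAA and the TATA box TATAAA.
Anxa1, chr19:20390622-20390921, minus strand: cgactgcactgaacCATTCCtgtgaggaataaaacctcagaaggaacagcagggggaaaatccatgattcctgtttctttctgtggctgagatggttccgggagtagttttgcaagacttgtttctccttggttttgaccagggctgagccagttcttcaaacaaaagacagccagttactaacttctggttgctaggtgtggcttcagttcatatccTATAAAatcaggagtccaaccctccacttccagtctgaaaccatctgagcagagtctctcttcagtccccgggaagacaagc
Anxa8, chr14:34085729-34086028, plus strand: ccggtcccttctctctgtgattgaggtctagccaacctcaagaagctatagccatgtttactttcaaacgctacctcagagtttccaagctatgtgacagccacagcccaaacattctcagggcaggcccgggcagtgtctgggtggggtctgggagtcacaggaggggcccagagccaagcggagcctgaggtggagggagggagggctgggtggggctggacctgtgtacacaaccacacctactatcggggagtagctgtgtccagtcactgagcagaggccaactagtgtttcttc
Sprr1a, chr3:92485832-92486131, minus strand: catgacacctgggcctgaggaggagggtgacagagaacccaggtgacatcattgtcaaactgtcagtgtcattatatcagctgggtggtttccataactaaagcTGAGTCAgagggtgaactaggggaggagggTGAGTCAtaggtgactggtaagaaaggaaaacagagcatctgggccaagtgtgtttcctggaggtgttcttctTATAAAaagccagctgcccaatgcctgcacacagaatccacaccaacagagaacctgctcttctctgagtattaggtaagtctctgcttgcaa
Ankrd1, chr19:36119795-36120094, minus strand: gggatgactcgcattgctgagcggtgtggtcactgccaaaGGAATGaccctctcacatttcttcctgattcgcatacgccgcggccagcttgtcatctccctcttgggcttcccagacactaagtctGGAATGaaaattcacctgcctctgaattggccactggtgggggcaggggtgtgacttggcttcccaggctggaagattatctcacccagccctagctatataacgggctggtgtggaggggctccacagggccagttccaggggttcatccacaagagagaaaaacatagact

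The Ankrd1 window held 2 TEAD cores, at positions -210 and -123 from the start site, and the Anxa1 window held 1, at -236, read on the opposite strand as CATTCC. Sprr1a had 2 AP-1 sites, at -146 and -116, in addition to a TATA box at -43, and Anxa1 had a TATA box at -32. Neither Anxa8 nor Krt7 (chr15:101412153-101412452, plus strand) held any of the 4 motifs. Of the 32851 promoter windows in the table, 14.7% held the TEAD core, 7.81% the AP-1 site, 8.30% the STAT site and 13.6% the TATA box. These matches describe the letters of the windows and not binding.

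Levels are given as CPM, counts scaled by TMM to a common library size, and a gene was called changed at an adjusted p under 0.05 in edgeR's quasi-likelihood test. The libraries held 15566216 to 19498383 counts. Between DSS and Con, 3 of the 7 genes rose (Anxa1, Krt7 and Msln), and the other 4 were higher in the mean without passing the test. Over all tested genes 26.5% were called in this comparison, 13.9% raised and 12.6% lowered. Between UA+DSS and DSS, 3 of the 7 fell (Anxa1, Anxa8 and Msln), where 18.7% of all genes were called (8.21% raised and 10.5% lowered). No member was called between DSS+UA and DSS, where 7.54% of all genes were. Against Con, 4 of 7 were raised in DSS+UA (Anxa1, Anxa8, Krt7 and Msln; background 18.1%, with 9.13% raised and 8.95% lowered) and 0 of 7 were called in UA+DSS (background 0.00566%). The 2 comparisons with DSS share the DSS libraries, and the 3 with Con share the Con libraries. Since the members were chosen with earlier results of these data known, their counts beside the background are descriptive only.

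**Figure D1:**
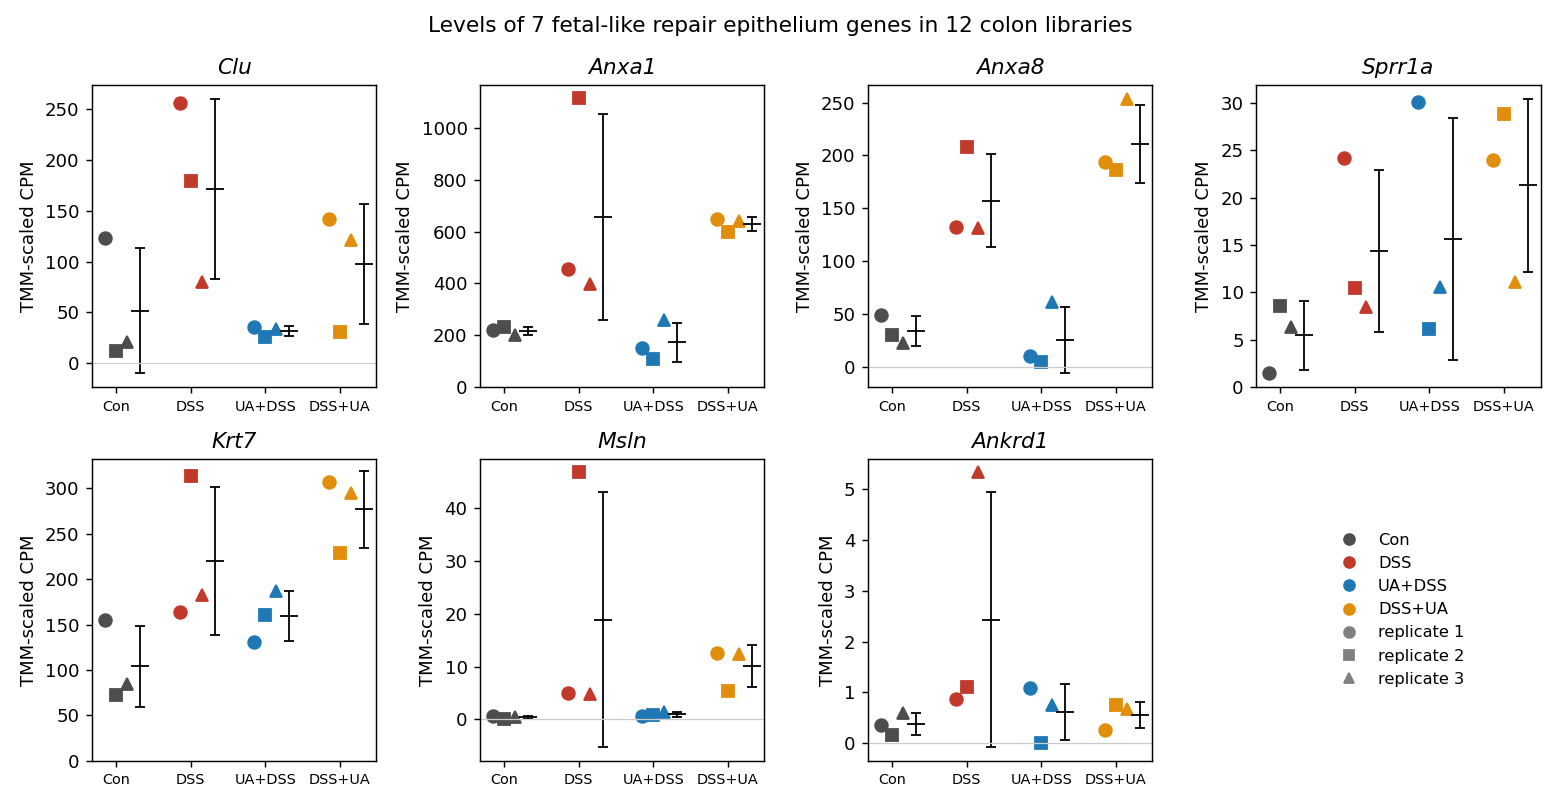
TMM-scaled CPM (linear axes from 0) of each gene in the 12 libraries, by group, with replicates as symbols and the group mean and SD (n = 3) as a black bar beside them. Anxa1, Anxa8 and Msln were high in all DSS and DSS+UA libraries and low in all Con and UA+DSS libraries, while Clu, Sprr1a and Ankrd1 had groups that were spread widely.

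Anxa1 (ENSMUSG00000024659, GRCm38 chr19:20373428-20390944, minus strand) was the most abundant of the 7 per length of transcript in every group. It stood at 220.2, 232 and 201 CPM in Con replicates 1, 2 and 3, at 454, 1115 and 399 in DSS, at 149.9, 110.1 and 258 in UA+DSS and at 649.6, 598 and 640.0 in DSS+UA. All DSS and DSS+UA libraries were higher than all Con and UA+DSS libraries, and the 3 DSS+UA libraries were nearly alike. From 218 ± 15.3 CPM in Con to 656 ± 398 in DSS (mean ± SD, n = 3 each), Anxa1 rose by a log2 fold change of 1.59 (SE 0.39, edgeR adjusted p = 0.0146). It was lower in UA+DSS than in DSS by -1.93 (SE 0.40, edgeR adjusted p = 0.0136), whereas DSS+UA and DSS differed by -0.06 with a 95% interval of -0.90 to 0.78. The highest library, DSS 2, also had the most neutrophil RNA (below). Without it the rise in DSS was 0.97 (edgeR adjusted p = 0.0395) and the difference of UA+DSS from DSS -1.31 (0.0251). In fits of the 2 groups alone neither call was made (adjusted p = 0.0593 and 0.0562), and the call in UA+DSS against DSS also ended without UA+DSS 2 (0.0676). DSS+UA was above Con by 1.53 (adjusted p = 0.0243), a call that ended without Con 2 (0.0584), Con 3 (0.0740), DSS+UA 1 (0.0553) or DSS+UA 3 (0.0676). Anxa1 overlaps a lincRNA on the other strand, and since the sources used here do not say whether counting used strand, reads of the pair may be mixed.

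Anxa8 (ENSMUSG00000021950, chr14:34085981-34100571, plus strand) was likewise higher in DSS and DSS+UA than in the other groups. Con libraries had 49.3, 29.8 and 22.1 CPM, DSS libraries 132, 208 and 131, UA+DSS libraries 10.1, 4.31 and 61.7, and DSS+UA libraries 193, 187 and 254. The DSS and DSS+UA libraries did not overlap with those of Con or UA+DSS, and the UA+DSS libraries differed from each other by 14.3 times. Its rise in DSS, 2.22 on the log2 scale (SE 0.77), narrowly missed the threshold (edgeR adjusted p = 0.0547). It passed in limma-voom (adjusted p = 0.0214), in a fit of the 2 groups alone (0.0249) and without UA+DSS 2 or UA+DSS 3 (0.0226 and 0.00607). The fall in UA+DSS against DSS was called at -2.63 (SE 0.78, edgeR adjusted p = 0.0410), but it lost its call without any 1 of 10 of the 12 libraries (adjusted p = 0.0514 to 0.113, the exceptions being Con 1 and UA+DSS 3), without a filter (0.120) and in the 2-group fit (0.107). Without UA+DSS 3 the fall was -4.45 (0.00951). The difference of DSS+UA from DSS was 0.43 (95% interval -1.19 to 2.05), and DSS+UA was above Con by 2.65 (adjusted p = 0.0407). That call ended without Con 1 (0.0567), Con 2 (0.112), Con 3 (0.127), DSS 1 (0.0525), DSS 3 (0.0513) or any 1 of the DSS+UA libraries (0.0694 to 0.105), without a filter (0.112) and with scaling by library size only (0.0523). Anxa8 overlaps a protein-coding gene on the opposite strand.

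Krt7 (ENSMUSG00000023039, chr15:101411043-101430313, plus strand) changed least of the called genes. Its levels were 155, 72.4 and 84.5 CPM in Con, 164, 313 and 182 in DSS, 131, 161 and 187 in UA+DSS and 308, 229 and 296 in DSS+UA. The DSS libraries were above the Con libraries by a small margin, from 155 in Con 1 to 164 in DSS 1, and the UA+DSS libraries overlapped with both. The log2 fold change of DSS against Con was 1.08 (SE 0.32, edgeR adjusted p = 0.0299). It was not called without DSS 2 (0.109), Con 2 (0.1) or Con 3 (0.0911), or in the 2-group fit (0.111). In UA+DSS the keratin differed from DSS by -0.46 (95% interval -1.16 to 0.23), and from Con by 0.62 (-0.08 to 1.31). It was higher in DSS+UA than in Con by 1.41 (SE 0.32, adjusted p = 0.0158), a call that ended without Con 2 (0.0501), Con 3 (0.0586) or DSS+UA 3 (0.0549). Krt7 overlaps an antisense RNA gene.

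Msln (ENSMUSG00000063011, chr17:25748613-25754378, minus strand) had the largest fold change of the 7. It was nearly absent in Con, with 13, 3 and 8 counts (0.672, 0.166 and 0.428 CPM), and stood at 5.05, 46.7 and 4.86 CPM in DSS, at 0.642, 0.750 and 1.44 in UA+DSS and at 12.5, 5.44 and 12.3 in DSS+UA. Every DSS and DSS+UA library was above every Con and UA+DSS library, and DSS 2 stood alone at the top. The log2 fold change of DSS against Con was 5.45 (SE 1.01, edgeR adjusted p = 0.00519), and without DSS 2 it was 3.52 (adjusted p = 0.00385). Msln was lower in UA+DSS than in DSS by -4.30 (SE 0.94, edgeR adjusted p = 0.0158). This call ended without UA+DSS 1 (0.0502) or UA+DSS 2 (0.0793), in limma-voom (0.0628) and in the 2-group fit (0.0533), and without DSS 2 the difference was -2.38 (0.0254). DSS+UA differed from DSS by -0.90 (95% interval -2.67 to 0.87), a difference whose sign turned without DSS 2 (1.04), and from Con by 4.55 (adjusted p = 0.0137; 0.0526 without Con 3). DESeq2 gave no adjusted p for Msln and Anxa8 because of an outlying count.

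Clu (ENSMUSG00000022037, chr14:65968483-65981547, plus strand), the gene that names the revival stem cell, was not called in any comparison. It stood at 123, 12.1 and 20.5 CPM in Con, 256, 179 and 79.6 in DSS, 35.3, 25.7 and 33.9 in UA+DSS and 142, 31.1 and 121 in DSS+UA. Con 1 was within the range of the DSS libraries, while UA+DSS was uniform and below all DSS libraries. DSS was higher than Con by 1.73 (SE 0.83, edgeR adjusted p = 0.143), and without Con 1 by 3.39 (adjusted p = 0.0157). UA+DSS against DSS gave -2.44 (SE 0.85, adjusted p = 0.0682), which passed in DESeq2 (0.00732), in the 2-group fit (0.0353) and without Con 1 (0.0200). DSS+UA against Con, 0.92 (adjusted p = 0.440), became 2.59 (0.0319) without Con 1.

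Sprr1a (ENSMUSG00000050359, chr3:92483952-92485895, minus strand) did not follow the annexins. Con libraries had 1.45, 8.54 and 6.36 CPM, DSS libraries 24.2, 10.5 and 8.45, UA+DSS libraries 30.1, 6.12 and 10.6, and DSS+UA libraries 23.9, 28.8 and 11.1. The highest of all 12 libraries was UA+DSS 1, and each pair of groups overlapped except DSS+UA and Con. The difference of DSS+UA from Con was 1.96 (SE 0.74, edgeR adjusted p = 0.0863), with DESeq2 calling it (adjusted p = 0.0215). The UA+DSS and DSS groups differed by 0.12 (95% interval -1.46 to 1.69).

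Ankrd1 (ENSMUSG00000024803, chr19:36111961-36120099, minus strand) was the scarcest of the 7. It had 0.362, 0.166 and 0.588 CPM in Con, 0.866, 1.10 and 5.34 in DSS, 1.09, 0 and 0.744 in UA+DSS and 0.263, 0.742 and 0.665 in DSS+UA. UA+DSS 2 held no count, which allows up to 0.187 CPM (3 counts), and DSS 3 held 101 of the 141 counts of its group. DSS was above Con by 2.68 (SE 1.01, edgeR adjusted p = 0.0701), and DESeq2 (0.0268) and the fit without UA+DSS 2 (0.0347) called it. Without DSS 3 the value was 1.38 (adjusted p = 0.322).

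**Figure D2:**
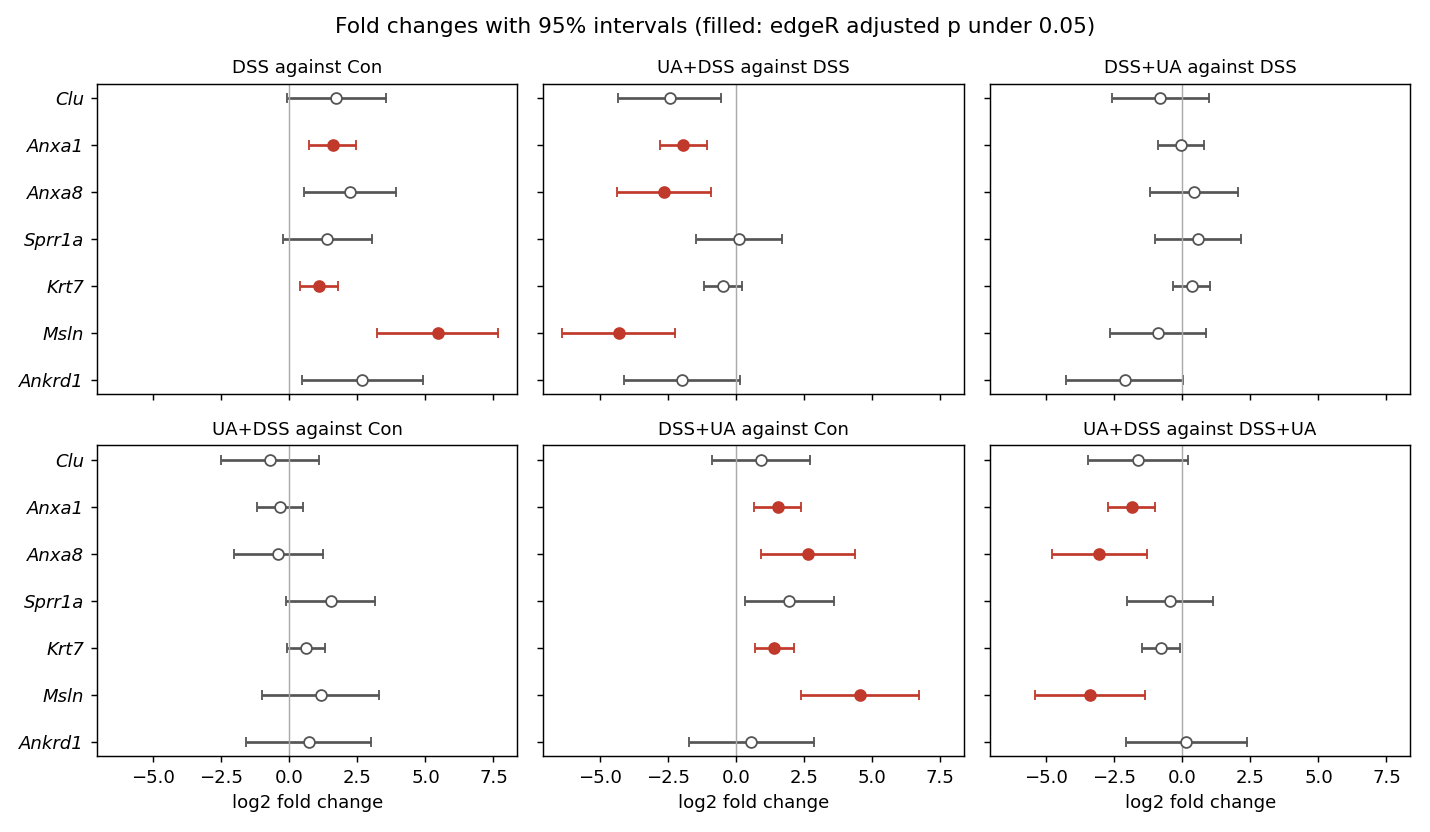
Log2 fold changes (points) with 95% intervals (bars) of the 7 genes in the 6 comparisons of groups, first group against second, from edgeR. Filled red points passed an adjusted p of 0.05: 3 genes in DSS against Con, 3 in UA+DSS against DSS, none in DSS+UA against DSS or UA+DSS against Con, 4 in DSS+UA against Con and 3 in UA+DSS against DSS+UA.

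The 2 UA schedules, which differ in start and in days of UA (by the methods, 7 in UA+DSS and 4 in DSS+UA), were compared directly. Against DSS+UA, the UA+DSS group was lower in Anxa1 by -1.87 (edgeR adjusted p = 0.0138), in Anxa8 by -3.05 (0.0278) and in Msln by -3.40 (0.0303), 3 of the 7 genes beside 16.8% of all genes (9.23% lowered). The 3 genes were lower in every UA+DSS library than in every DSS+UA library. Krt7 was also lower without overlap, at -0.80 (0.104), but did not pass. The Anxa1 call ended without UA+DSS 2 (0.0633), the Anxa8 call without UA+DSS 1 (0.0878), UA+DSS 2 (0.0658), DSS+UA 1 (0.0569) or DSS+UA 3 (0.0775), and the Msln call without any UA+DSS library (0.0624 to 0.117), DSS+UA 1 (0.0697) or DSS+UA 3 (0.0825). Without UA+DSS 3 the Anxa8 difference was -4.89 (0.00568). The Anxa8 call also ended without a filter (0.0844) and in the 2-group fit (0.0536), which called Krt7 (0.0204), and the Msln call in limma-voom (0.0774) and without a filter (0.0747). In UA+DSS against Con, where edgeR called 1 gene of all tested, the 7 differences ran from -0.71 for Clu to 1.52 for Sprr1a. None had an unadjusted p under 0.05, limma-voom called none of them, and DESeq2 called none of the 5 for which it gave an adjusted p. The same held for DSS+UA against DSS, where the lowest unadjusted p was 0.0521, for Ankrd1 at -2.12. The libraries of DSS and Con were fully apart for 5 of the 7 genes (41.3% of all genes), those of UA+DSS and DSS for 4 (42.8%) and those of DSS+UA and DSS for 1 (34.7%). This held for 0 of the 7 between UA+DSS and Con (20.6%), 5 between DSS+UA and Con (38.9%) and 4 between the UA groups (45.3%). A test of all 4 groups at once called Anxa1 (edgeR adjusted p = 0.00736), Msln (0.00597), Anxa8 (0.0230) and Krt7 (0.0258), 4 of 7 where 35% of all genes were called, and not Ankrd1 (0.104), Clu (0.113) or Sprr1a (0.193).

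An estimate of the position of the sampled tissue along the colon differed between the groups. It rests on RNA of bulk tissue, and the segment itself is not stated. A position score was formed from Hox genes, whose expression follows the body axis: the mean log2 CPM of 5 rectal genes (Hoxb13, Hoxd10, Hoxd11, Hoxd12 and Hoxd13) less the mean of 6 caecal ones, Hoxb3 through Hoxb8. It was -5.70 to -4.16 in UA+DSS, 0.37 to 3.10 in DSS and 4.11 to 5.06 in DSS+UA, and 5.53, -3.03 and -1.83 in Con 1, 2 and 3. UA+DSS libraries thus had lower scores than all others, and DSS+UA libraries higher scores than all but Con 1, so that UA treatment and position cannot be told apart here. With the score as a covariate, no member was called in UA+DSS against DSS, DSS+UA against Con or UA+DSS against DSS+UA, where this fit called 3, 2176 and 0 of all 17658 genes. In UA+DSS against DSS the values became -1.83 for Anxa1 (edgeR adjusted p = 0.155), -1.74 for Anxa8 (0.374) and -3.46 for Msln (0.235), and Clu turned to 0.16. The DSS libraries lay between those of Con, and in DSS against Con the values with the covariate were 1.57 for Anxa1 (0.0225), 1.02 for Krt7 (0.0194), 5.41 for Msln (0.00821) and 1.81 for Clu, which then passed (0.0250).

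Con 1, the control with the most rectal score, could be set beside the DSS+UA libraries. It had 220.2 CPM of Anxa1 against 598 to 649.6 in DSS+UA, 49.3 of Anxa8 against 187 to 254, 155 of Krt7 against 229 to 308 and 0.672 of Msln against 5.44 to 12.5. Its Clu, at 123 CPM, lay inside the DSS+UA range of 31.1 to 142. With 1 control at such a score, these values carry no test.

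**Figure D3:**
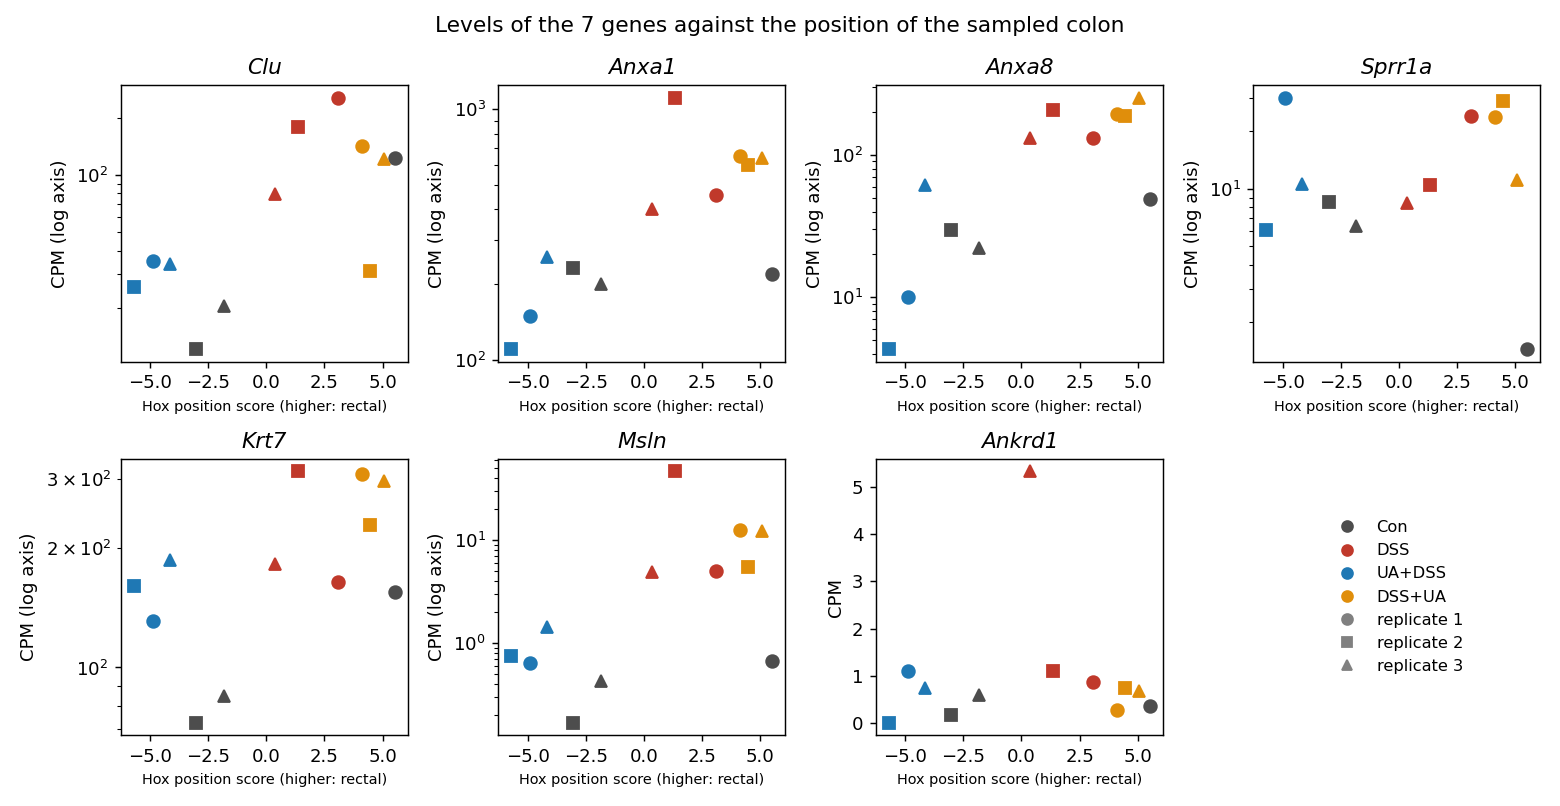
CPM of each gene (log axes, linear for Ankrd1) against the Hox position score (log2 units, higher toward the rectum) in the 12 libraries, coloured by group. The UA+DSS libraries lie at the far left (-5.70 to -4.16) and the DSS+UA libraries at the right (4.11 to 5.06), with Con 1 beside them at 5.53.

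Per length of transcript (CPM per kilobase of exon), the 7 genes kept a similar order of levels in Con and DSS. In Con the mean levels were 74.8 for Anxa1, 17.9 for Anxa8, 15.1 for Clu, 14.8 for Krt7, 6.76 for Sprr1a, 0.138 for Msln and 0.129 for Ankrd1. In DSS they were 225, 83.5, 49.9, 31.2, 17.8, 6.16 and 0.844 in the same order. Neighbouring groups in the order of a gene's mean levels mostly overlapped: the clear steps were from DSS+UA to Con for Anxa1 (2.89-fold), from DSS to Con for Anxa8 (4.66-fold) and from DSS+UA to UA+DSS for Msln (10.7-fold), and no neighbouring groups were apart for Clu, Sprr1a, Krt7 or Ankrd1.

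Across the 12 libraries the 7 genes did not move as one. The levels of Anxa1 and Anxa8 (log2 CPM) had a Pearson r of 0.94, and 0.73 after the group means were taken out, and Krt7 and Msln had 0.90 and 0.86. Sprr1a had an r of 0.07 to 0.37 with the other 6, and -0.73 with Krt7 within groups. Each of these describes 12 libraries that share group and position. Among tested genes whose mean log2 CPM was 1 or more, those most like Clu included Pax5 (r = 0.99), a B cell transcription factor gene, and Chst3 (0.97). Those most like Ankrd1 were the fibrillar collagen genes Col1a1 (0.95), Col1a2 (0.93) and Col5a1 (0.92). Anxa1 was most like Rab32 (0.98), S100a11 (0.97) and Sh3tc2 (0.96), Anxa8 like Zdhhc2 (0.95), Vsig1 (0.95) and Gpr137b (0.95), and Krt7 like Dph2 (0.91), Egln3 (0.91) and Lrg1 (0.90). Msln had Gm7665 (0.98), Marcksl1 (0.97) and Acod1 (0.96), and Sprr1a had Gm6542 (0.92), Gm9762 (0.91) and Wdr45b (0.89).

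Cell types that also express the genes were measured in the same libraries by summed CPM of marker lists. All 6 markers of B cell follicles and follicular dendritic cells were detected in each group, and their sum was 76.8 in Con 1 against 9.60 and 10.1 in Con 2 and 3, 194 to 601 in DSS, 25.9 to 68.2 in UA+DSS and 53.9 to 223 in DSS+UA. In Con, DSS and DSS+UA the library with the most Clu also had the highest sum, and in UA+DSS it did not. The part of follicles in the Clu values was not tested. The 8 neutrophil markers summed to 2.16 to 3.57 in Con, 665, 18487 and 869 in DSS, 18.7 to 73.5 in UA+DSS and 144 to 720 in DSS+UA. As for Anxa1, every DSS and DSS+UA library was above every Con and UA+DSS library in this sum. DSS 2, the extreme, was the library highest in Anxa1, Msln and Krt7. Both Anxa1 and Msln kept their calls in DSS against Con without it, and Krt7 did not. Leaving out DSS 2 does not remove neutrophils, since DSS 1 and DSS 3 were also above all Con libraries in these markers. The part of neutrophils in the Anxa1, Msln and Krt7 values was not tested.

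The mesothelium list of 8 markers summed to 3.57 to 10.4 in Con, 14.6 to 22.7 in DSS, 7.37 to 11.4 in UA+DSS and 3.05 to 7.06 in DSS+UA, with Bnc1 at 0 in Con and UA+DSS. Within DSS the sum was lowest in DSS 2, where Msln was highest, and the DSS+UA libraries had 5.44 to 12.5 CPM of Msln with mesothelial sums that overlapped with those of Con. Of the 5 markers tested, 3 were called higher in DSS than in Con and none in DSS+UA (median log2 fold change 2.60 and 0.76). Of all genes, 13.9% and 9.13% were raised in these comparisons. The part of mesothelium in the Msln values was not tested. The squamous list of 12 markers summed to 4.60 to 8.33 in Con, 20.0 to 63.2 in DSS, 5.16 to 5.56 in UA+DSS and 13.5 to 39.1 in DSS+UA, with Krt6a and Krt4 at 0 in Con and Krt6a at 0 in UA+DSS. As for Anxa8, every DSS and DSS+UA library was above every Con and UA+DSS library. Of the 6 squamous markers tested, 4 were higher and 2 lower in DSS than in Con, and likewise in DSS+UA. Of these, 3 and 1 were called, all higher, beside 13.9% and 9.13% of all genes raised. The part of squamous cells in the Anxa8 and Krt7 values was not tested. DSS 3, which held the most Ankrd1, had 13342 CPM of 6 pancreatic acinar markers against 31.2 to 554 in the other 11 libraries, and the highest fibroblast sum (6966 against 624 to 4362). The summed markers of colon epithelium itself were 15237 to 29146 in Con, 6649 to 15315 in DSS, 25318 to 29750 in UA+DSS and 15316 to 25092 in DSS+UA, with DSS 2 the lowest.

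**Figure D4:**
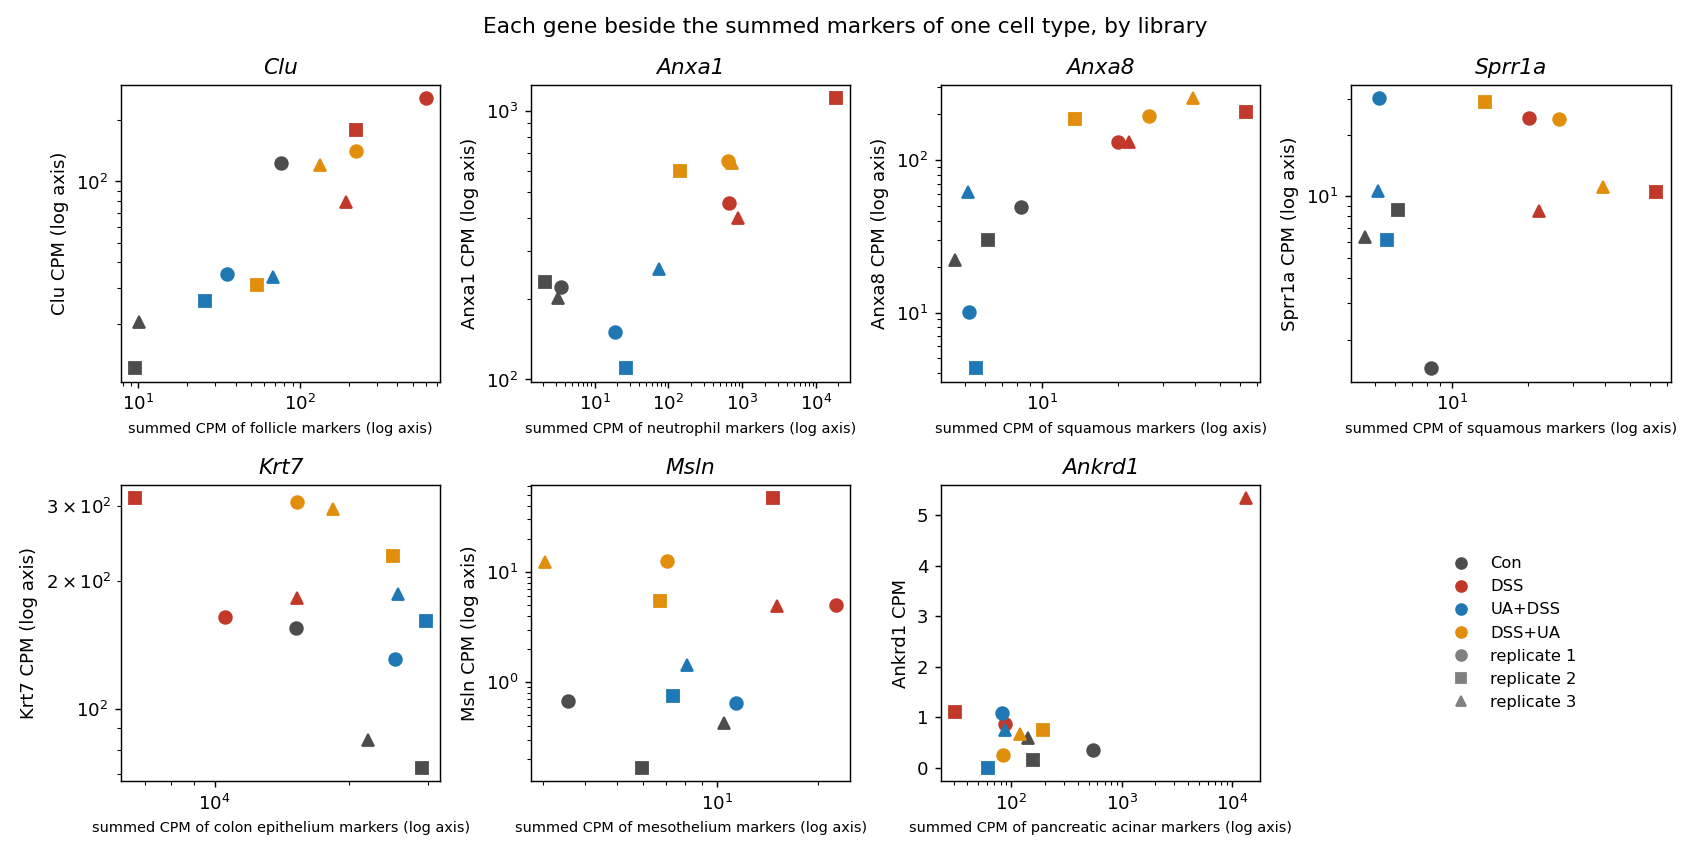
CPM of each gene (log axes, linear for Ankrd1) against the summed CPM of one marker list (log axes) in the 12 libraries, coloured by group. Con 1 stands above the other Con libraries in both Clu and the follicle markers, DSS 2 is extreme in neutrophil markers and in Anxa1, and DSS 3 is extreme in pancreatic markers and in Ankrd1.

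Of 32 further genes of the fetal-like and wound repair state, 28 passed the filter (Anxa10, Sprr1b, Sprr3 and Sprr2d did not). These genes, and the lists that follow, were chosen with earlier results of these data known. Their counts beside the share of all genes are therefore descriptive and give no independent test of a repair state. In DSS, 18 of the 28 rose, beside 13.9% of all genes raised, with a median log2 fold change of 1.17 against -0.03 over all genes. Against DSS, 18 of the 28 fell in UA+DSS (10.5% of all genes lowered, median -1.20 against -0.02), while 6 fell and 1 rose in DSS+UA (5% lowered and 2.54% raised, median -0.59 against 0.02). With the position covariate 0 and 2 of the 28 were called in these comparisons, where edgeR called 3 and 199 genes in all. The 2 were Gja1 (-1.51, adjusted p = 0.0145) and Il33 (-2.62, 0.0238). The 12 called in DSS+UA against Con were all higher (9.13% of all genes raised, median 0.81). In DSS+UA against DSS, Gja1 (connexin 43), Ereg (epiregulin, an EGF receptor ligand), Tubb6 (a tubulin) and Il33 (an alarmin cytokine) were among those that fell, beside values of -0.06 for Anxa1 and 0.43 for Anxa8.

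Gja1 had 27.1 to 36.3 CPM in Con, 120 to 182 in DSS, 40.6 to 45.7 in UA+DSS and 45.0 to 56.9 in DSS+UA, and the DSS libraries were above all others. It rose by 2.15 in DSS (edgeR adjusted p = 0.000430), and against DSS it was lower by -1.76 in UA+DSS (0.00378) and by -1.48 in DSS+UA (0.00418). Ereg gave 4.69 (0.00123), -2.78 (0.00998) and -2.46 (0.0210), Il33 4.03 (0.00135), -3.14 (0.00800) and -2.10 (0.0285), and Tubb6 1.71 (0.00133), -1.68 (0.00565) and -1.02 (0.0235) for the same 3 comparisons. Gja1 kept its 3 calls without any 1 library. In DSS+UA against DSS the other 3 genes lost theirs without DSS+UA 2 (0.0674 to 0.0805) or DSS+UA 3 (0.0981 to 0.108), Il33 and Tubb6 without DSS 2 (0.0681 and 0.0628), and Ereg in UA+DSS against DSS without UA+DSS 2 (0.0507).

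Ly6a (Sca-1, a surface marker of the fetal-like state) was highest in late UA, with 231 to 426 CPM in Con, 556 to 901 in DSS, 384 to 545 in UA+DSS and 1008 to 1964 in DSS+UA. All DSS+UA libraries were above all others. DSS was above Con by 1.01 (edgeR adjusted p = 0.0374), a call lost without Con 1 (0.102), Con 3 (0.0665), DSS 1 (0.131), UA+DSS 3 (0.0529) or DSS+UA 3 (0.0513), and in the 2-group fit (0.0824). The difference was 1.03 in DSS+UA against DSS (0.0657) and -1.63 in UA+DSS against DSS+UA (0.0108, and 0.0569 without UA+DSS 2). The single repair gene raised in DSS+UA against DSS was Krt19, a simple epithelial keratin (1.02, adjusted p = 0.0387), named after its value was seen.

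**Figure D5:**
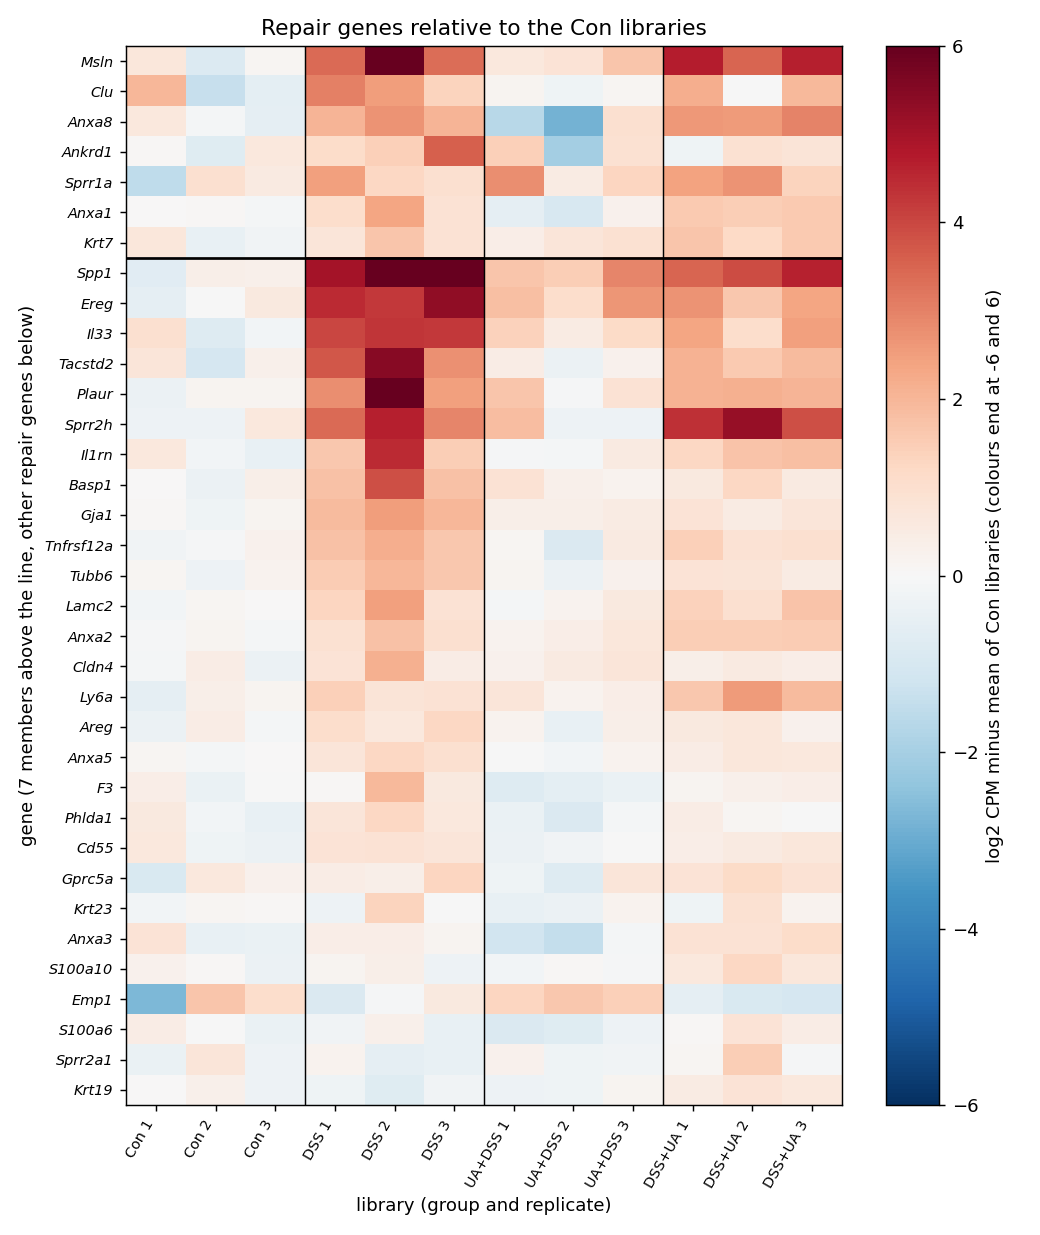
Log2 CPM minus the mean of the Con libraries (colour, red higher and blue lower, ending at -6 and 6) for the 7 genes (above the line) and the 28 further repair genes (below), each sorted by the mean in DSS, in the 12 libraries. The DSS columns are red for most genes and the UA+DSS columns near white, while in DSS+UA Msln, Anxa8, Anxa1, Krt7 and Ly6a stay red and Gja1, Ereg and Il33 are paler than in DSS.

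YAP and TAZ target genes, a list of 22 that were all tested, were less uniform. In DSS 5 rose and 2 fell (median 0.58), beside 13.9% of all genes raised and 12.6% lowered. Against DSS, 2 rose and 4 fell in UA+DSS (8.21% and 10.5% of all genes, median -0.56), and 9 fell in DSS+UA (5% of all genes, median -1.05). Myof (myoferlin) rose in DSS by 1.28 (edgeR adjusted p = 0.00275) and fell in UA+DSS by 1.12 (0.00998), and stood at -0.29 in DSS+UA against DSS (0.339). Fjx1 rose in DSS by 2.33 (0.00366) and fell in both UA groups, at -1.77 (0.0157) and -1.81 (0.0276). Axl, a receptor tyrosine kinase, had 1.28 (0.00687), -1.09 (0.0197) and -1.42 (0.0194). Nuak2, a kinase, was lower in DSS (-1.06, 0.00910), as was Crim1 (-0.72, 0.0171). Crim1 had 54.5 to 61.9 CPM in Con, 28.3 to 44.3 in DSS, 52.7 to 75.6 in UA+DSS and 19.3 to 22.4 in DSS+UA. The classical targets Ccn1 and Ccn2 (Cyr61 and Ctgf, matricellular proteins) were not called in DSS, at 1.47 (0.0715) and 0.51 (0.435), and Ccn2 fell in DSS+UA against DSS (-1.90, 0.0436). That Ccn2 call ended without any 1 of 9 libraries, all but Con 1, DSS 1 and DSS+UA 2 (0.0554 to 0.148). Fjx1 and Axl lost their calls in UA+DSS without UA+DSS 2 (0.0769 and 0.0918), Axl also without UA+DSS 3 (0.0631). In DSS+UA Axl lost it without DSS+UA 3 (0.0981), and Fjx1 without DSS 2 (0.0583) or any DSS+UA library (0.0511 to 0.112). Crim1 was not called lower in DSS without Con 2 (0.0582), DSS 1 (0.0577) or DSS 2 (0.0513). With the position covariate, Fjx1 (0.0567), Axl (0.0545) and Ccn2 (0.0947) were not called in DSS+UA against DSS.

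The Hippo pathway's own 15 components, all tested, included 5 that rose in DSS (13.9% of all genes) and, against DSS, 3 that fell in UA+DSS (10.5%) and 2 in DSS+UA (5%). Wwtr1, which encodes TAZ, had 20.2 to 28.9 CPM in Con, 43.8 to 51.9 in DSS, 18.6 to 28.0 in UA+DSS and 13.6 to 16.7 in DSS+UA. The DSS libraries were above all others, and the DSS+UA libraries below all others. It was changed by 1.00 in DSS against Con (edgeR adjusted p = 0.00505), by -1.01 in UA+DSS (0.0111) and by -1.65 in DSS+UA against DSS (0.00386). Tead4, a DNA-binding partner, rose by 1.93 (0.00145) and was lower by -1.35 in UA+DSS (0.0101), and Tead2 gave 0.91 (0.0220) and -1.15 (0.0151). Stk4, the kinase MST1, rose by 0.73 in DSS (0.00594). Lats2, a kinase that restrains YAP and a YAP target, fell in DSS+UA against DSS by 1.15 (0.0198), a call lost without DSS+UA 2 (0.0658) or DSS+UA 3 (0.0981). In UA+DSS against DSS, Wwtr1, Tead4 and Tead2 lost their calls without UA+DSS 2 (0.0566, 0.0565 and 0.0749), and Tead2 in DSS against Con without Con 2 (0.0719), Con 3 (0.0523) or DSS 3 (0.0803). With the position covariate Lats2 was not called in DSS+UA against DSS (0.0571) and Wwtr1 kept its call there, and no gene named from these lists was called in UA+DSS against DSS. Yap1 was not called in any of the 3 comparisons, at 0.45 (0.0925), -0.37 (0.179) and -0.24 (0.412). Of 7 fibroblast markers, 6 rose in DSS (median 1.62, 13.9% of all genes raised). Against DSS, 5 fell in UA+DSS (median -1.57, 10.5% of all genes lowered) and 2 in DSS+UA (median -1.65, 5% lowered). Of 7 smooth muscle markers, 0 were called in these comparisons (medians -0.94, 0.88 and -0.78), where 26.5%, 18.7% and 7.54% of all genes were called. The part of stromal cells in the values of the repair, YAP target and Hippo lists was not tested.

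Homeostatic crypt stem cell genes were compared in the same libraries. Of 14 tested, 6 fell in DSS (12.6% of all genes lowered, median -0.56), and 3 rose in UA+DSS against DSS (8.21% raised, median 0.34). Lgr5, the receptor for R-spondin that marks crypt base cells, had 7.70 to 16.4 CPM in Con, 0.501 to 4.60 in DSS, 6.81 to 9.84 in UA+DSS and 3.03 to 4.05 in DSS+UA. No DSS library reached a Con or UA+DSS library. It was lower in DSS by -2.45 (edgeR adjusted p = 0.0161), higher in UA+DSS than in DSS by 1.97 (0.0449), and not called in DSS+UA against DSS (0.69, 0.465). The first of these calls ended without DSS 1 (0.0582), and the second without any 1 of 10 libraries, all but Con 1 and DSS 3 (0.0555 to 0.140). The Wnt feedback genes Axin2 (-1.07, 0.00685) and Rnf43 (-0.75, 0.0174) and the coreceptor gene Rgmb (-1.22, 0.00159) were lower in DSS than in Con as well. Rgmb and Rnf43 were called higher in UA+DSS than in DSS, at 0.90 (0.00998) and 0.65 (0.0398). Rnf43 lost that call without any 1 of 8 libraries, namely DSS 1, DSS 2 and all of UA+DSS and DSS+UA (0.0563 to 0.126), and its call in DSS against Con without DSS 1 (0.0600) or DSS 2 (0.0525). Cdca7 and Nkd1 were not called in DSS+UA against DSS, at 0.55 (0.0858) and -1.03 (0.0878).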

How the data were processed

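Total RNA of the colon of 12 mice was sequenced by the authors, 3 per group, and groups were taken from the sample labels. Reads were mapped by the authors to GRCm38, and the deposited values are their whole-number counts per gene, not normalized. The submitters' processing notes name HISAT2, FastQC and Cuffdiff. For the annotation, the counting options and the use of strand, nothing is given in the sources used here. Gene names, coordinates and exon lengths came from GENCODE annotation of GRCm38.

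Counts were filtered by filterByExpr, scaled by TMM and fitted in 1 robust quasi-likelihood model of the 12 libraries with edgeR 4.0.16 (R 4.3.3), and p-values were adjusted by the Benjamini-Hochberg method over 17658 genes (threshold 0.05). Log2 CPM used a prior count of 2. Totals of 15566216 to 19498383 counts limit genes with few counts, such as Ankrd1. Alternatives were DESeq2 1.42.0, limma-voom (limma 3.58.1), other scaling and filters, fits of 2 groups, a replicate block, the position score as covariate, and leaving out each library.

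The members and lists were chosen with earlier results of these data known. Within the lists, named genes were the 4 with the smallest p in DSS against Con, the 2 smallest in each UA group against DSS, and Ly6a, Ccn1 and Ccn2. Yap1 and Krt19 were named outside this rule. Replicate numbers did not pair the libraries.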

Additional observations from a re-analysis of the deposited data

Results flagged for a closer look

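The effects of early and late UA, each against the same DSS libraries, differed for 3 of the 7 genes in the direct comparison of UA+DSS with DSS+UA. The log2 fold changes were -1.87 for Anxa1 (edgeR adjusted p = 0.0138), -3.05 for Anxa8 (0.0278) and -3.40 for Msln (0.0303), and each gene was lower in all 3 UA+DSS libraries than in all 3 DSS+UA libraries. Over all genes 16.8% were called in this comparison, with 9.23% lowered. With the position score as a covariate the values were -1.72 (0.404), -1.71 (0.646) and -2.12 (0.696), in a fit that called 0 of all 17658 genes at an adjusted p under 0.05 and 2250 at an unadjusted one. The start of UA, its number of days and position along the colon cannot be told apart in these libraries.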

How the results depend on the processing

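In alternatives other than leaving out a library, the number of the 7 genes called stayed within 1.5 times its value except as follows. UA+DSS against DSS gave 1 in the 2-group fit, Clu (0.0353) in place of Anxa1, Anxa8 and Msln, and 0 with the position covariate (3 as reported), DSS+UA against Con 0 with the covariate (4), and UA+DSS against DSS+UA 1 in DESeq2 (which gave no adjusted p for Anxa8 and Msln), 1 without a filter and 0 with the covariate (3). The further repair genes called were 11 in the 2-group fit of DSS against Con (18). For UA+DSS against DSS they were 10 in the 2-group fit and 0 with the covariate (18), and for late UA against DSS 4 in the 2-group fit, 4 with the replicate block and 2 with the covariate (7). In the 2-group fit, calls of Ly6a, Crim1, Lgr5, Nuak2, Rnf43 and Tead2 in DSS against Con (0.0532 to 0.0824), of Lgr5 (0.113) and Tead2 (0.0501) in UA+DSS against DSS and of Ccn2 (0.119) and Lats2 (0.0583) in late UA against DSS also ended. Of all genes, the 2-group fits called 2131 in DSS against Con, 2072 in UA+DSS against DSS and 430 in DSS+UA against DSS. The numbers as reported were 4688, 3300 and 1331. The replicate block called 552 in the last. Fewer samples enter the 2-group fit, more genes are tested without a filter, and the cause of the changes with the block and the covariate was not tested. Replicate numbers are shared by the groups but did not pair the libraries (correlations of -0.216 to 0.187, 5 of 18 above 0.1, and 5 of 12 libraries closest to their own number). The replicate block lost the calls of Krt7 in DSS against Con (adjusted p = 0.0512) and Anxa8 in DSS+UA against Con (0.0619), and of Ly6a in DSS against Con (0.0574), Ccn2 in late UA against DSS (0.0747) and Rnf43 in UA+DSS against DSS (0.0520). With the block Clu passed in DSS against Con (0.0484) and in UA+DSS against DSS (0.0470).

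Leaving out 1 library gave 2 to 5 called members in DSS against Con, 0 to 4 in UA+DSS against DSS, 0 to 4 in DSS+UA against Con and 0 to 4 in UA+DSS against DSS+UA, 2 to 5 in the test of 4 groups (2 without Con 2 or DSS+UA 3), and 0 in the other 2 comparisons. DSS against Con reached 5 without UA+DSS 2. In UA+DSS against DSS, 0 were left without UA+DSS 2 and 1 without UA+DSS 1. Of all genes, these fits called 183 and 1936, against 3300 with all libraries. In DSS+UA against Con, 0 were left without Con 3, 1 without Con 2 or DSS+UA 3 and 2 without DSS+UA 1. Over all genes the calls were 1563, 1886, 1062 and 1809 in this order, against 3193 with all libraries. UA+DSS against DSS+UA kept 0 without UA+DSS 2 and 1 without UA+DSS 1, DSS+UA 1 or DSS+UA 3. The further repair genes ranged over 14 to 18, 4 to 20 and 1 to 9 in the comparisons of DSS with Con, UA+DSS with DSS and DSS+UA with DSS. Those that moved over 1.5 times were 4 without UA+DSS 2 in the second, and in the third 2 without DSS 2, 4 without any UA+DSS library and 1 without DSS+UA 2 or DSS+UA 3, with 9 at most. In the third, 1331 of all genes were called with all libraries and 397 without DSS 2. The number was 580 to 679 without a UA+DSS library, 142 without DSS+UA 2 and 25 without DSS+UA 3.

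Signs turned for values not called as reported. With the covariate, Clu was 0.16, 1.97 and 1.96 in UA+DSS against DSS, Con and DSS+UA, Anxa8 -0.035 in DSS+UA against DSS and 0.34 in UA+DSS against Con, Krt7 0.22 in UA+DSS against DSS and 0.22 against DSS+UA, Sprr1a -1.31 in UA+DSS against DSS and Ankrd1 -0.33 in UA+DSS against DSS+UA. In limma-voom, Anxa1 was 0.10 in DSS+UA against DSS, Sprr1a -0.075 in UA+DSS against DSS, and Ankrd1 -0.24 and -0.79 in UA+DSS against Con and DSS+UA. With the block Ankrd1 was -0.081 in the last. Without 1 library, Clu ranged from -1.17 to 0.96 and Anxa8 from -2.24 to 0.10 in UA+DSS against Con, Anxa1 from -0.31 to 0.58 and Msln from -1.34 to 1.04 in DSS+UA against DSS, Sprr1a from -0.78 to 0.71 in UA+DSS against DSS and Ankrd1 from -0.53 to 0.72 in UA+DSS against DSS+UA.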
